A study of Mus musculus with 6 samples.

Results

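The transcription factor genes Runx1, Runx2 and Runx3 and their shared partner Cbfb were followed through sorted DN2 thymocytes of wild-type and E2A-deficient mice. Every probe set that the array annotation assigns to only 1 of these genes was taken, without regard to its values. This gave 3 genes of 18193, read by 9 probe sets of 45037, of which 6 read Runx1, 2 read Runx3 and 1 reads Cbfb. Runx2 was not analysed here. The samples were DN2 cells sorted from fetal thymus of FVB mice, hybridised to 6 Affymetrix mouse arrays. Of these, 3 held cells of wild-type genotype and 3 held E2A-deficient cells, and the stated aim was to find genes that depend on E2A in developing T cells. The labels give no further allele, no treatment, no fetal age and no number of animals, and they do not say that replicates came from separate animals, so the spread behind each p-value is that of these samples and may be technical. The name E2A stands for the E proteins that Tcf3 encodes. DN2 cells lack CD4 and CD8 and are early thymocytes in which the choice of the T-cell fate is made.

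Runx proteins bind DNA through a conserved Runt domain, and Cbfb, which does not bind DNA itself, holds that domain in its DNA-binding form. The complexes activate or repress depending on the cofactors at a site, and Groucho-type corepressors of the Tle family bind the end of Runx proteins. Runx1 is needed for blood stem cell emergence and early thymocyte development, Runx3 is best known in CD8 T cells and innate lymphocytes, and Runx2 is the regulator of bone-forming cells. In T cells the factors silence Cd4 in CD4- stages and act on T-cell receptor genes. Runx1 and Runx3 each have an upstream and a downstream promoter, which give transcripts with different 5' ends.

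The promoter windows show where E-boxes, a general pattern that includes the letters E proteins bind, and Runx letters lie near the starts of these genes. The sequences are RefSeq's on GRCm38.p6 and run from 250 bases before to 50 after an annotated start. All 4 genes have windows in that table, with 2 each for Runx1 and Runx3 and 1 each for Runx2 and Cbfb. The 3 windows printed show how the start sites of Runx1 differ in these letters and what the upstream windows of Runx1 and Runx3 share, and none of them is tied to a probe set. The capitals mark E-boxes (CANNTG, the same on both strands) and the Runx letters TGTGGT or TGCGGT on either strand, so that TGTGGT on the other strand reads ACCACA. E proteins do not bind all forms of CANNTG alike. In the Runx2 window alone these motifs overlap each other.
Runx1 upstream window, chr16:92826025-92826324, minus strand: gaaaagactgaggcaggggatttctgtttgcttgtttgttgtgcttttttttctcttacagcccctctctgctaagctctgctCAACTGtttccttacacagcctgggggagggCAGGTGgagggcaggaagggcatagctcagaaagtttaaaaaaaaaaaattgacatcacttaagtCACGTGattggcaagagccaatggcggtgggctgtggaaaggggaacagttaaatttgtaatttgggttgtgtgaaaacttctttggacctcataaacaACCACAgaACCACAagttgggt
Runx1 downstream window, chr16:92697280-92697579, minus strand: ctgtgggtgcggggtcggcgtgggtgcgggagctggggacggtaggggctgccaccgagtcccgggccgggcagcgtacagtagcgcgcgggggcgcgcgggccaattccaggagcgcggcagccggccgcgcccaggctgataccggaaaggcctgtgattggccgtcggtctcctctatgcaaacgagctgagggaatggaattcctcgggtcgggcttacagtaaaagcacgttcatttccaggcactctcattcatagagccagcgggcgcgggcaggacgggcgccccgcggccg
Runx3 upstream window, chr4:135120395-135120694, plus strand: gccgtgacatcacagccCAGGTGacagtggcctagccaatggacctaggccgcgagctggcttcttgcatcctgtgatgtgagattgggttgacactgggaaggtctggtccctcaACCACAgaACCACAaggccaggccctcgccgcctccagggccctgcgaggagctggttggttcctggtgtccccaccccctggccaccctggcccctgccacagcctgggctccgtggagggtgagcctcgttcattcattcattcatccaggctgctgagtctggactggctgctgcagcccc

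The upstream Runx1 window holds 3 E-boxes, which lie 167 (CAACTG), 136 (CAGGTG) and 71 (CACGTG) bases before the start, and 2 copies of TGTGGT after it. The downstream Runx1 window holds 0 of either motif. The upstream Runx3 window holds 1 E-box, 233 bases before the start, and 2 copies of TGTGGT, while the downstream one (chr4:135152295-135152594) holds 1 E-box and 0 Runx letters. The Cbfb window (chr8:105170424-105170723) holds 0 of either motif. An E-box was found in 72.3% of the 32851 windows of this length in the table, TGTGGT in 16.8%, TGCGGT in 6.45% and 2 or more copies of TGTGGT in 1.81%. The narrower E-box forms CAGCTG and CACCTG, on either strand, were in 16.3% and 20.2%. The CAGGTG of the upstream Runx1 and Runx3 windows is CACCTG on the other strand. The upstream windows of Runx1 and Runx3 and the Runx2 window share a run of 18 letters, caACCACAgaACCACAag, in which the paired Runx letters stand 2 bases apart. That run was in 4 of the 32851 windows, the fourth being that of the predicted gene Gm16225. These matches describe letters only, and no binding was measured.

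Array medians lay between 77.4 and 79.0, and intensities between 41.4 and 18824, on a linear scale. With 3 arrays a group, their number sets the precision. Tcf3, read as a check of the labels, had intensities of 477, 421 and 414 in wild-type and 236, 229 and 281 in E2A-deficient cells by its brightest probe set (log2 change -0.81, SE 0.0952, limma adjusted p = 0.00864). Which part of Tcf3 is removed is not in the labels, and a probe set outside it checks nothing. Of 13 measured markers of the DN2 stage, 11 were brighter in wild-type cells than the upper quartile of all probe sets, 134, among them Kit, Il2ra and Cd44. Cd4 and Cd8a, whose products these cells lack, averaged 85.3 and 86.6 there, below that quartile. Of the 13, 1 rose and 2 fell, against 2.4% and 1.06% of all genes. These markers were Gata3 (1.45), Notch1 (-1.46) and Thy1 (-1.32), of which Thy1 is a surface marker of the T lineage. These cells are a bulk sort, so fewer cells of a type and less RNA per cell cannot be told apart.

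Across the array 804 probe sets differed between the groups, 1.79% of those tested, with 1.21% of them higher and 0.58% lower where E2A was deficient (adjusted p under 0.05 by limma, after Benjamini and Hochberg). Of the 9 Runx and Cbfb probe sets 0 passed that threshold, while 4 had an unadjusted p under 0.05, against 12.5% of all probe sets. All 4 read Runx1 and were lower in E2A-deficient cells, a direction in which 4.41% of all probe sets had such a p. In 3 of the 9 the E2A-deficient arrays all lay below the wild-type arrays, against 6.79% of all probe sets. In 0 of the 9 they all lay above, against 10.1%. All 3 read Runx1 and were brighter than 94.9%, 92.5% and 80.4% of probe sets, while these shares cover any brightness. The median log2 change of the 9 was -0.25, and that of all probe sets was 0.0039. As 6 of the 9 read Runx1 on the same arrays, these counts and this median do not describe 9 independent members.

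Runx1 read lower in E2A-deficient cells by all 6 of its probe sets, by amounts from -0.51 to -0.016 on the log2 scale with a median of -0.34. By its brightest probe set, 1422864_at, the wild-type arrays gave 786, 682 and 621 and the E2A-deficient arrays 578, 470.0 and 427. The groups did not overlap, and wild-type replicate 3 and E2A-deficient replicate 1 lay nearest to each other. The means were 697 ± 83.6 and 492 ± 77.7 (SD, n = 3), a log2 change of -0.51 (SE 0.129, 95% interval -0.81 to -0.20), or 1.42-fold lower. This did not pass after adjustment (limma unadjusted p = 0.00518, adjusted p = 0.132).

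Probe set 1440878_at had the smallest p of the 9. It gave 475, 445 and 491 in wild-type and 353, 403 and 323 in E2A-deficient cells, and again no E2A-deficient array reached the lowest wild-type one. The log2 change was -0.39 (SE 0.0895, 95% interval -0.60 to -0.18; limma unadjusted p = 0.00295, adjusted p = 0.0995). Wild-type arrays differed little here, by 1.10-fold between the highest and the lowest.

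The dimmer 1427650_a_at also separated the groups, with 189, 165 and 203 against 156, 145 and 155. Its suffix marks a probe set designed to read more than 1 transcript of the same gene. The log2 change was -0.28 (SE 0.0844, 95% interval -0.48 to -0.086; limma unadjusted p = 0.0113, adjusted p = 0.196). The E2A-deficient arrays lay close together, within 1.08-fold, and the highest of them was only slightly below wild-type replicate 2.

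In the other 3 Runx1 probe sets the groups overlapped. 1452531_at gave 187, 240 and 224 in wild-type and 134, 205 and 162 in E2A-deficient cells (log2 change -0.39, SE 0.160, limma unadjusted p = 0.0427, adjusted p = 0.373), where E2A-deficient replicate 2 exceeded wild-type replicate 1. Without E2A-deficient replicate 1 its change was -0.24. 1422865_at gave 198, 149 and 109 against 132, 108 and 134 (-0.25, SE 0.201, limma adjusted p = 0.745). Without wild-type replicate 1 this change was -0.044, without wild-type replicate 3 -0.47 and without E2A-deficient replicate 2 -0.15. Its wild-type arrays spanned 1.81-fold, the widest span of any of the 9 probe sets in either group. 1452530_a_at gave 100.1, 90.7 and 80.3 against 84.1, 95.2 and 88.0, near the array medians, and a log2 change of -0.016 (95% interval -0.23 to 0.20, limma adjusted p = 0.981).

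**Figure D1:**
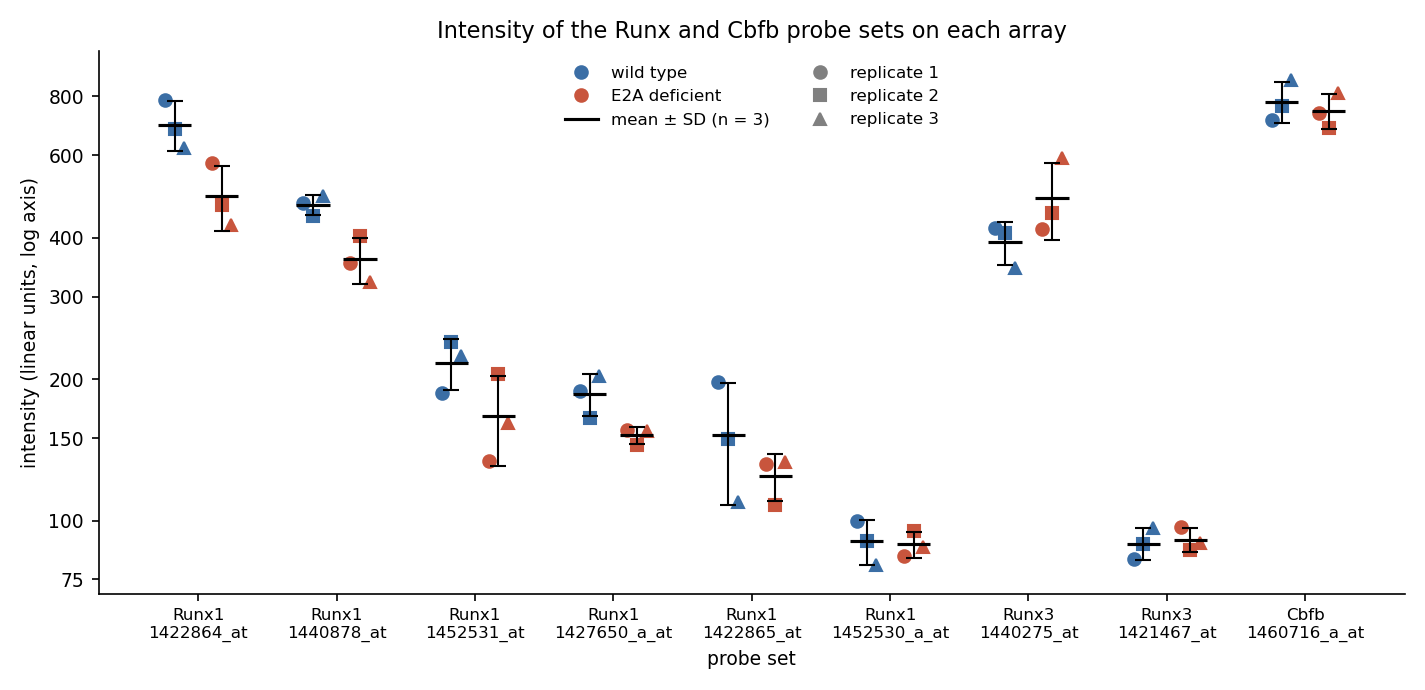
Intensity of each Runx1, Runx3 and Cbfb probe set on the 6 arrays (log axis), wild type in blue and E2A deficient in red, with mean and SD of 3 arrays and a symbol for each replicate number. The groups are apart in the Runx1 probe sets 1422864_at, 1440878_at and 1427650_a_at, where the E2A-deficient arrays are lower, and overlap in the other 6.

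Some Runx1 probe sets were drawn from 1 sequence record. 1422864_at and 1422865_at are annotated to the same RefSeq mRNA, and their log2 changes were -0.51 and -0.25. 1452530_a_at and 1452531_at share another record, with -0.016 and -0.39, and this pair was not tested against each other. Whether 2 probe sets of a gene changed by different amounts was tested on the difference of their log2 values on each array, in a fit of 16755 such pairs, of which 1.15% passed. Of the 5 Runx1 pairs, each set against the brightest probe set, 0 passed. The widest difference was that of 1452530_a_at, whose log2 change was 0.49 above that of 1422864_at (SE 0.140, 95% interval 0.17 to 0.81; limma unadjusted p = 0.00794, adjusted p = 0.198). For the other 4 pairs the difference was between 0.12 and 0.26, and each 95% interval included 0, the widest running from -0.46 to 0.69. The place of each probe set on the transcript was not analysed here.

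Read array by array, the 6 Runx1 probe sets leaned the same way in all 3 E2A-deficient samples. Relative to each probe set's wild-type mean, 6, 5 and 6 of the 6 were lower in E2A-deficient replicates 1, 2 and 3, with medians of -0.25, -0.29 and -0.33 (log2). On the wild-type arrays 1, 3 and 3 of the 6 were below that mean, and the medians were 0.091, -0.0063 and -0.052. The probe sets did not rank the arrays alike. Over the 6 arrays their Pearson r with 1422864_at was between 0.23 and 0.77. After each group's mean was removed it was between -0.66 and 0.61. These are descriptions over 6 arrays that all the probe sets share.

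Runx1 was also read as 1 gene. Read by its brightest probe set among 18193 genes it did not pass (log2 change -0.51, limma adjusted p = 0.0972), against 3.46% of genes that did. With the mean of its 6 probe sets, and every other gene read by such a mean, it passed (-0.31, limma adjusted p = 0.0334, over its 17 alternatives and the main setting 0.0267 to 0.419). The log2 change kept its sign in all of these, from -0.63 to -0.31.

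**Figure D2:**
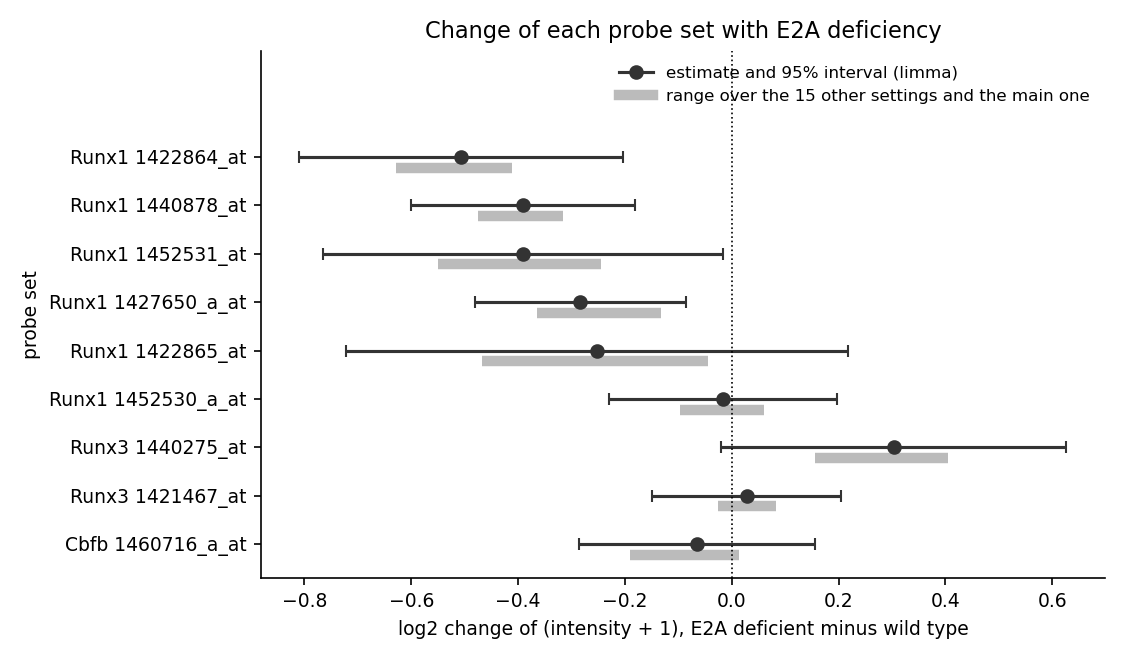
Log2 change of each probe set (E2A deficient minus wild type) with its 95% interval from limma, not adjusted for the number of probe sets, and in grey the range of the estimate over the settings tried. Of the 6 Runx1 intervals 4 lie below 0, and the Runx3 and Cbfb intervals all include 0.

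Runx3 did not pass by either of its probe sets. 1440275_at gave 419, 410.3 and 345 in wild-type and 418, 452 and 591 in E2A-deficient cells. E2A-deficient replicate 3 was the highest and wild-type replicate 3 the lowest, while the remaining 4 arrays lay between 410.3 and 452. The means were 391 ± 40.8 and 487 ± 91.5 (SD, n = 3), a log2 change of 0.30 (SE 0.138, 95% interval -0.020 to 0.63; limma adjusted p = 0.442). Without E2A-deficient replicate 3 the log2 change was 0.16, and without wild-type replicate 3 it was 0.21.

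The other Runx3 probe set, 1421467_at, was dim, under that upper quartile. Its intensities were 82.7, 89.1 and 96.4 in wild-type and 96.9, 86.7 and 89.9 in E2A-deficient cells (log2 change 0.028, 95% interval -0.15 to 0.21; limma adjusted p = 0.954). Its change lay 0.27 below that of 1440275_at on the log2 scale (SE 0.180, 95% interval -0.69 to 0.14; limma adjusted p = 0.648), a difference that did not pass.

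Cbfb, the partner that all 3 Runx proteins need, was read by 1 probe set, 1460716_a_at. It gave 711, 763 and 866 in wild-type and 738, 684 and 812 in E2A-deficient cells, and the groups overlapped over most of their range. The means were 780 ± 79.1 and 745 ± 64.7 (SD, n = 3), a log2 change of -0.065 (SE 0.0946, 95% interval -0.29 to 0.16; limma adjusted p = 0.893). A p above the threshold does not show that the level was the same, and the interval allows a change of up to 0.29 downward.

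The balance between the genes was followed as the ratio of their brightest probe sets on each array, which compares changes and not levels. The Runx1 to Runx3 ratio was lower on every E2A-deficient array than on any wild-type array. How many pairs over the whole array separate the groups in this way was not counted. On the log2 scale the ratio was 0.91, 0.73 and 0.85 in wild-type and 0.47, 0.058 and -0.47 in E2A-deficient cells. The E2A-deficient arrays were spread more widely than the wild-type ones, with replicate 3 the lowest. The difference was -0.81 (SE 0.209, 95% interval -1.29 to -0.33; limma unadjusted p = 0.00458, adjusted p = 0.156), or a 1.75-fold lower ratio, and it did not pass. With 1 array left out at a time it was between -1.03 and -0.57. For Runx3 the ratio rests on 1440275_at, whose change was 0.16 without E2A-deficient replicate 3. The other Runx3 probe set, 1421467_at, changed by 0.028. The Runx1 to Cbfb ratio differed by -0.44 (SE 0.191, 95% interval -0.88 to -0.0017; limma adjusted p = 0.428). The Runx3 to Cbfb ratio differed by 0.37 (SE 0.162, 95% interval -0.0053 to 0.74; limma adjusted p = 0.434). Both overlapped between the groups, and of the 3 pairs of genes 0 passed.

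**Figure D3:**
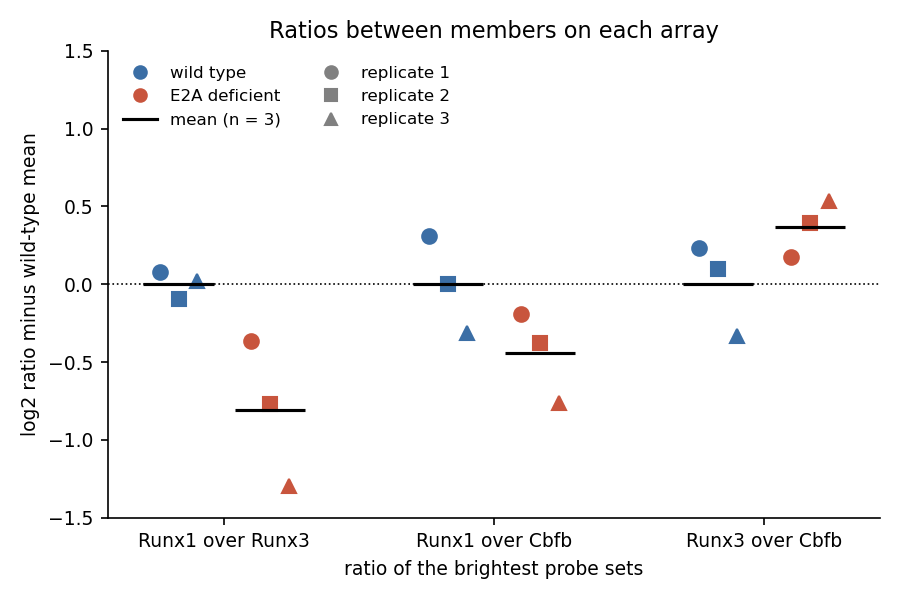
Log2 ratio of the brightest probe sets of 2 genes on each array, minus the wild-type mean of that ratio, wild type in blue and E2A deficient in red, with the mean of 3 arrays as a bar. Runx1 over Runx3 separates the groups and the other 2 ratios overlap between them. How many pairs over the whole array separate the groups was not counted.

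A control for how far transcripts were copied from their 3' end differed between arrays. The log2 difference between the 3' and 5' beta-actin probe sets was 3.26, 2.63 and 3.35 on the wild-type and 2.60, 2.65 and 2.74 on the E2A-deficient arrays, so wild-type replicates 1 and 3 stood apart. It thus partly follows genotype, and as a covariate it also uses up a degree of freedom. A call lost under it cannot be assigned to copying or to genotype. With that difference as a covariate the Runx1 change was -0.54 by 1422864_at and -0.34 by 1440878_at. By 1427650_a_at, the third probe set that separated the groups, it was -0.13, against -0.28 without the covariate (limma adjusted p = 0.819, over all settings 0.0895 to 0.819). The Runx3 change by 1440275_at was 0.27. For 1422864_at, 1440878_at and 1440275_at the limma adjusted p-values were 0.529, 0.580 and 0.875, and over all settings these ran from 0.0367 to 0.529, 0.0622 to 0.580 and 0.307 to 0.875.

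The genes that work with Runx factors were read from lists, each gene by its brightest probe set. Among all genes 2.4% rose and 1.06% fell in E2A-deficient cells, and the median log2 change was 0.015. Cofactors and regulators of Runx proteins gave 24 measured genes, and among them 0 rose, 1 fell and 23 did not pass, with a median log2 change of 0.022. The Groucho-type corepressors Tle1 (0.11), Tle2 (0.16), Tle3 (0.17) and Tle4 (-0.077) and the shorter family member Tle5 (0.21) did not pass. Nor did the acetyltransferases Crebbp (0.034), Ep300 (-0.010) and Kat6a (-0.051) or the corepressor subunits Hdac3 (0.12) and Sin3a (0.067). Cbfa2t3, a corepressor of the ETO family (-0.29), and the cell-cycle kinase Cdk6 (-0.23) separated the groups downward without passing. Tle2 and Tle5 separated them upward. Of the 24 genes 2 separated the groups upward and 3 downward, against 10.1% and 6.79% of all probe sets.

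The member that fell was Kmt2a, a histone methyltransferase of blood progenitors. It went from 239, 246 and 245 in wild-type to 198, 188 and 184 in E2A-deficient cells (log2 change -0.36, SE 0.0562, limma adjusted p = 0.0177). Kmt2a lost its call in 8 of 17 alternatives, among them each of those without wild-type replicate 2 or 3 or without E2A-deficient replicate 2 or 3 (limma adjusted p over all settings 0.0160 to 0.157). By the mean of its probe sets Kmt2a was at -0.31 and did not pass (limma adjusted p = 0.137).

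Genes listed as DNA-binding partners of Runx in early T cells were called in 55.6% of cases, beside the 3.46% of all genes. The list was chosen with earlier results of these data known and includes Tcf3, the gene of the genotype. It also holds the receptor Notch1 and the cofactor Lmo2, so its label is loose. Of its measured members 14 were above the upper quartile of probe sets in wild-type cells, while the 3.46% covers genes of any brightness. Among the 18 measured, 3 rose, 7 fell and 8 did not pass, with a median log2 change of -0.36. Ets1, an ETS factor that binds DNA cooperatively with Runx1, went from 582, 665 and 509.6 to 286, 302 and 255 (log2 change -1.05, SE 0.109, limma adjusted p = 0.00307). No E2A-deficient array came near the lowest wild-type one. Gata3, a regulator required from the earliest T-cell stages, went from 280.4, 274 and 219.9 to 731, 594 and 802 (log2 change 1.45, SE 0.135, limma adjusted p = 0.00215).

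The other genes of that list that fell were the receptor Notch1 (-1.46), the repressor Gfi1 (-1.11), Tcf3 itself, the bHLH factor Lyl1 (-0.80), the chromatin organiser Satb1 (-0.76) and Myb (-0.40). Tox (0.93), a nuclear protein of developing T cells, and Lef1 (0.80), a partner of beta-catenin, rose. Averaged over the probe sets of each gene, Notch1 was at -0.91, Tox at 0.51 and Tcf3 at -0.52, and all 3 passed. Myb no longer passed with any 1 array omitted, whichever of the 6 it was (limma adjusted p over all settings 0.00470 to 0.362). Gata3, Gfi1, Satb1, Tcf3 and Myb lost their calls under the beta-actin covariate, which partly follows genotype. Their log2 changes there were 1.37, -0.90, -0.68, -0.75 and -0.37. Bcl11b, a regulator of T-lineage commitment, did not pass by its brightest probe set (-0.42, limma adjusted p = 0.122) and passed by the mean of its probe sets (-0.60, limma adjusted p = 0.00306, over all settings 0.00306 to 0.272). Tcf12 (-0.17), Ikzf1 (0.34), Erg (-0.45), Fli1 (-0.20), Tal1 (-0.32) and Lmo2 (-0.022) did not pass.

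Of the genes with documented regulation by Runx factors in T and NK cells, 35 were on the array. Among these 6 rose, 4 fell and 25 did not pass, with a median log2 change of -0.031. The called share was 28.6%, beside 3.46% of all genes. This list too was chosen with earlier results of these data known. Of its measured members 12 were above the upper quartile of probe sets in wild-type cells, while the 3.46% covers genes of any brightness. Cd4, the co-receptor gene that Runx factors silence, read 83.4, 81.2 and 91.4 in wild-type and 79.5, 82.4 and 85.0 in E2A-deficient cells (log2 change -0.051, 95% interval -0.21 to 0.10; limma adjusted p = 0.839). The groups overlapped, at intensities not far above the array medians. Zbtb7b, which encodes the CD4-lineage factor ThPOK and is also silenced through Runx sites, read 119, 88.7 and 102 against 103, 98.0 and 99.8 (-0.031, 95% interval -0.28 to 0.21; limma adjusted p = 0.948). Under the beta-actin covariate both took the opposite sign, Cd4 at 0.026 and Zbtb7b at 0.14, as did Zbtb7b without wild-type replicate 1 (0.077), and neither passed. The cytokine receptor gene Il7r read 592, 416 and 601 against 361, 365 and 518 (-0.37, 95% interval -0.81 to 0.064; limma adjusted p = 0.416), with overlapping groups. Under the beta-actin covariate it was at -0.012. Spi1, which encodes the myeloid factor PU.1 and has Runx sites in its upstream enhancer, read 152, 136 and 131 against 126, 120.4 and 130.5 (-0.15, limma adjusted p = 0.394), without overlap.

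The members of that list that rose were Id2, Itgae, Gzmb, Il4, Klf2 and Cxcr6. Id2, an antagonist that keeps E proteins off DNA, went from 149, 178 and 159 to 388, 436 and 502 (log2 change 1.44, SE 0.108, limma adjusted p = 9.71e-04), and was at 0.55 by the mean of its probe sets, which also passed. Itgae, an integrin chain known to depend on Runx3 in CD8 T cells, went from 64.9, 62.8 and 54.2 to 184, 117 and 176 (1.35, SE 0.172, limma adjusted p = 0.00752). That probe set carries a suffix for probes common to several transcripts. By the mean of its probe sets Itgae was at 0.88 and without the shared one at 0.41, both past the threshold.

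The cytokine gene Il4 (1.09), the protease gene Gzmb (1.19), the trafficking regulator Klf2 (0.79) and the chemokine receptor gene Cxcr6 (0.65, or 0.41 by the mean of its probe sets) were all dim in wild-type cells. Il4 read 69.3, 64.8 and 68.4 there and 173, 124 and 142 in E2A-deficient cells. Gzmb read 111, 109 and 110.0 against 216, 208 and 354, with E2A-deficient replicate 3 the highest. Gzmb did not pass once wild-type replicate 2 or 3 was omitted (limma adjusted p over all settings 0.00117 to 0.166), and Il4, Itgae and Gzmb lost theirs under the beta-actin covariate.

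Those that fell were the CD3 chains Cd3g (-2.41) and Cd3e (-1.60), Satb1, and the repressor Bach2 (-1.04, or -0.60 by the mean of its probe sets). Cd3e read 389, 319 and 360.5 in wild-type and 119, 119 and 112 in E2A-deficient cells, without overlap (limma adjusted p = 2.00e-04). Bach2 lost its call under the beta-actin covariate. The recombinase gene Rag1 (-0.66), the growth factor receptor gene Kit (0.26) and the pre-TCR chain gene Ptcra (-0.14) did not pass. The effector genes Ifng (0.048) and Prf1 (-0.059) and their regulators Eomes (-0.076) and Tbx21 (0.069) did not pass either. All 4 averaged under the upper quartile of probe sets in both groups. The receptor gene Cd160 did not pass by its brightest probe set (0.81), which separated the groups upward. Of the 4 probe sets of Cd160, 1 other than the brightest was called higher.

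Genes that Runx factors act on in stem and myeloid cells gave 17 measured members. Among them 3 rose, 2 fell and 12 did not pass, with a median log2 change of 0.0010. The called share was 29.4%, beside 3.46% of all genes, which covers genes of any brightness. Of the 17 members 8 were above the upper quartile of probe sets in wild-type cells, and this list was chosen with earlier results known. The integrin chain Itgb2 went from 119, 155 and 141 to 309, 318 and 325 (log2 change 1.20, SE 0.0982, limma adjusted p = 0.00121). The surface protein Cd34 (1.07) and the homeobox factor Meis1 (0.71) rose as well. Meis1 did not pass once wild-type replicate 2 was omitted (limma adjusted p = 0.0523, over all settings 0.00254 to 0.0645) and was at 0.47 by the mean of its probe sets. The granule protease Ctsg (-0.87) and Gfi1 fell. Cd34, Meis1 and Gfi1 lost their calls under the beta-actin covariate. The erythroid and megakaryocyte factor Nfe2 (-0.70), the peroxidase gene Mpo (0.19) and the receptor gene Csf1r (-0.071) did not pass.

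**Figure D4:**
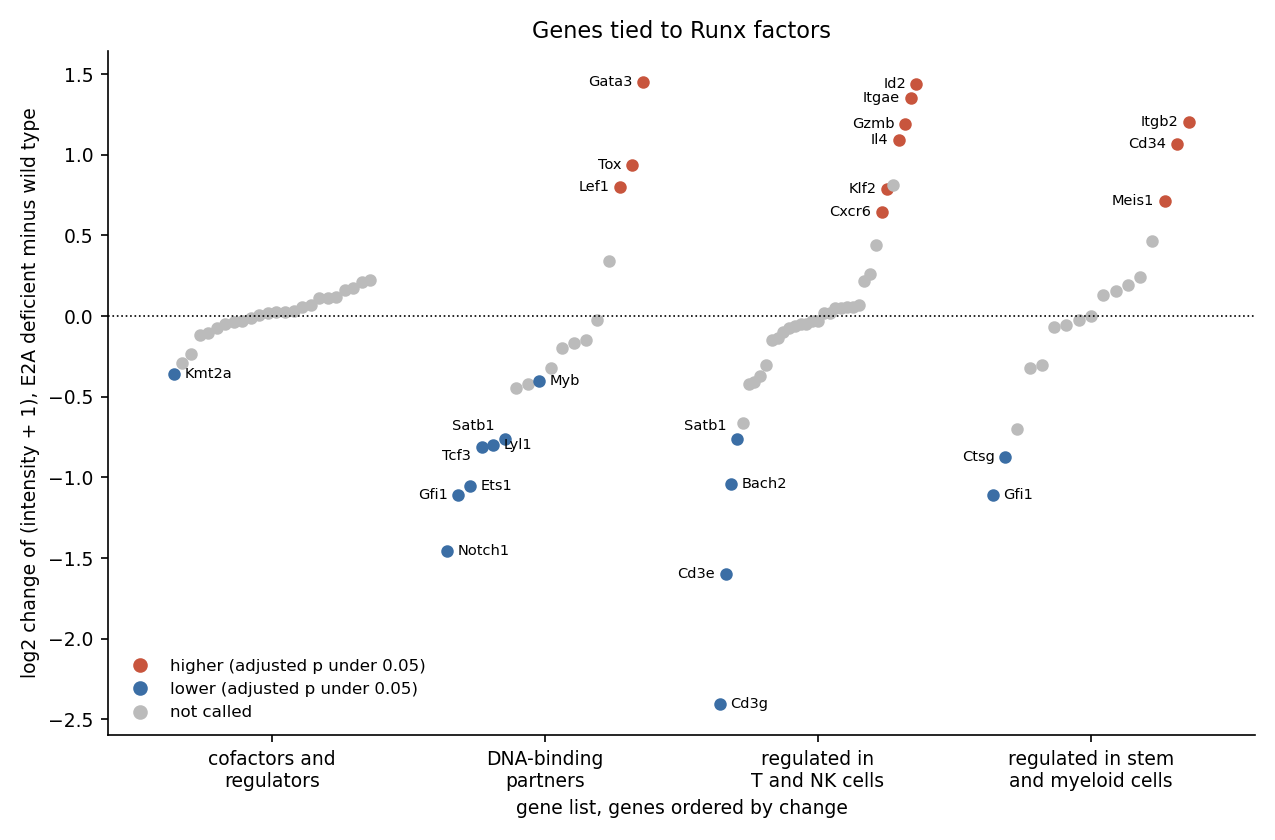
Log2 change (E2A deficient minus wild type) of every measured gene of the 4 lists tied to Runx factors, each gene a point at its brightest probe set, with genes called higher in red, called lower in blue and not called in grey. Of the cofactors 1 of 24 was called, and of the genes listed as DNA-binding partners 10 of 18 (Tcf3 among them). Of the T and NK cell genes 10 of 35 were called, and of the stem and myeloid genes 5 of 17. Over all genes, of any brightness, 3.46% were called.

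Markers of other cells that express Runx genes were read beside these values. Among all genes 2.4% rose and 1.06% fell. Of 17 measured innate lymphoid and NK markers 8 rose and 0 fell, and the summed intensity of the list was 3077 to 3516 on wild-type and 4786 to 5339 on E2A-deficient arrays. The 8 were Icos (3.10), Rora (2.16), Ccr6 (1.66), Zbtb16 (1.40), Gzmb (1.19), Cxcr6 (0.65), Cxcr5 (0.53) and Il18r1 (0.51). By the mean of probe sets Icos was at 1.72 and Rora at 1.04, and Cxcr5 lost its call in 9 of 17 alternatives. Under the beta-actin covariate 4 of the 8 were called. The defining NK genes Eomes, Tbx21 and Prf1 were not among the 8. Of 7 gamma-delta T markers 3 rose and 1 fell, with sums of 1928 to 2103 on wild-type and 2935 to 3540.5 on E2A-deficient arrays. Maf (2.04), Cd163l1 (2.01) and Etv5 (0.58) rose, and Sox13 (-0.41) fell. By the mean of probe sets Maf was at 0.79, Cd163l1 at 1.43 and Etv5 at 0.21. Without wild-type replicate 2, E2A-deficient replicate 1 or E2A-deficient replicate 3, 2 gamma-delta markers were called, and without any other array 3. Etv5 lost its call in 7 of 16 alternatives and Sox13 in 9 of 17.

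The 12 markers of double-positive or mature alpha-beta T cells held 1 that rose and 3 that fell (sums of 1312 to 1448 on wild-type and 1240.3 to 1302 on E2A-deficient arrays). Klf2 (0.79) rose, and Arpp21 (-1.10, or -0.40 by the mean of its probe sets), Cd5 (-0.70) and Trat1 (-0.48) fell. For this list and those below, the shares over all genes were 2.4% higher and 1.06% lower. Of 18 myeloid, mast and B markers 1 rose and 2 fell (sums of 3309 to 3749 on wild-type and 3206 to 3889 on E2A-deficient arrays). Fcgr3 (1.22) rose, and Lyz1 (-1.35) and Lyz2 (-0.50) fell. Of 11 thymic epithelial markers 1, Krt18 (0.69), rose and 0 fell (sums of 877 to 894 on wild-type and 999 to 1033 on E2A-deficient arrays). Omitting 1 array moved these counts of calls. Those of the alpha-beta list went to 2 without wild-type replicate 3 or any 1 E2A-deficient array. Those of the myeloid, mast and B list went to 1 without E2A-deficient replicate 1. Those of the epithelial list went to 0 without any 1 array other than E2A-deficient replicate 2. Under the beta-actin covariate the gamma-delta, alpha-beta, myeloid and epithelial lists held 1, 2, 1 and 0 called markers. Of 13 osteoblast and mesenchymal markers, cells in which Runx2 acts, 0 rose and 1 fell, which was the receptor gene Pdgfrb (-0.90) and also the 1 marker of that list above the upper quartile in wild-type cells. The sums of that list were 2539 to 2659 on wild-type and 1784 to 1841 on E2A-deficient arrays. The part of other cell types in the Runx1, Runx3 and Cbfb values was not tested.

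The genes whose pattern over the 6 arrays was most like that of a member did not pass themselves. They were sought among 11076 other genes brighter than the median of all probe sets. The highest Pearson r with Runx1 were those of Fam83d (0.996), 4930563E22Rik (0.994) and Chek1 (0.989), whose log2 changes were -0.20, -0.24 and -0.26. For Runx3 they were Il12rb1 (0.997), Brpf3 (0.990) and Sfr1 (0.986), with changes of 0.16, 0.11 and 0.27. For Cbfb they were Ibtk (0.985), Amh (0.982) and Zfp35 (0.980), with changes of -0.18, -0.014 and -0.036. These are the highest of many correlations over the same 6 arrays and are given as a description.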

How the data were processed

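The data were the intensities of 6 arrays, 1 value per probe set and array. RNA of cells sorted straight into lysis buffer was amplified by repeated in vitro transcription, per the labels' protocols. The submitters' processing notes name RMA, with no version given in the sources used here. The intensity values deposited by the authors were linear, and how RMA output came to that scale is not stated in the sources.

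Values were analysed as log2(intensity + 1), without further normalization or filter, after 64 control probe sets were left out. The annotation named 1 gene for 34945 probe sets, several for 932 and none for 9160. Each of 18193 genes was read by its brightest probe set. A linear model per probe set, per gene and per pair of probe sets was fitted over all features in limma 3.58.1 (R 4.3.3), two-sided, at 0.05 after the adjustment of Benjamini and Hochberg. Exact permutation of 3 against 3 cannot go below 0.1 and was not relied on. The fits were tested on simulated data, with added changes larger than any estimated for Runx1, Runx3, Cbfb or their pairs. Recovery of changes as small as theirs was not tested. Figures used matplotlib 3.10.9 (Python 3.11.15).

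The text names every member probe set, Tcf3, up to 6 called genes of each list by smallest p, Cd4, Zbtb7b, Il7r and Spi1, and the 3 genes most like each member. Other list genes were named after their values were seen. Members and gene lists were chosen with earlier results of these data known. Alternatives were a replicate block, leaving out 1 array at a time, no pseudocount or 16, quantile normalization, median centring, a filter on features under the median, robust variances with an intensity trend, array weights, a beta-actin covariate and, per gene, the mean of probe sets or probe sets without shared suffixes.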

Additional observations from a re-analysis of the deposited data

How the results depend on the processing

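Of the 192 recomputed counts of calls, 158 equalled the main count or were within 1.5 times it, and 34 were not. The 158 include counts that were 0 in the main setting and stayed 0. The lists of cell markers were not among the 192. Counts of called Runx3 and Cbfb probe sets, of called pairs of probe sets and of called pairs of members were 0 under every alternative tried. The called Runx1 probe sets went from 0 to 1 with the replicate block. That 1 was 1422864_at (log2 change -0.51, limma adjusted p = 0.0367; over its alternatives and the main setting 0.0367 to 0.529), and Runx1 as a gene passed under the block too (0.0267). The labels share replicate numbers between the groups but do not say that they pair samples. Deviations of same-numbered arrays correlated at 0.041, 0.041 and -0.036, and 4 of 6 arrays correlated best with their own number. The main fit had no block, and these values do not settle whether the numbers pair samples. Over all features the replicate block gave 309 probe sets higher and 162 lower, against 543 and 261, and 0 called Runx cofactors, against 1. The count of called cofactors was also 0 with an intensity trend. With the beta-actin covariate 71 probe sets and 72 genes were higher, 43 probe sets and 51 genes lower, and the calls were 0 of the cofactors, 6 of the DNA-binding partners, 5 of the T and NK cell genes and 2 of the stem and myeloid genes. Without single arrays 243 to 380 probe sets were higher and 115 to 194 lower, 216 to 368 genes were higher and 104 to 165 lower, and 0 to 1 cofactors were called. The lowest of these 4 counts over all features all came without E2A-deficient replicate 3. Without probe sets of shared suffixes Lyz1 was at 0.0022 against -1.35. The cause of these moves was not tested. The signs of 1452530_a_at and 1421467_at turned without replicate 1 of either group, and that of Cbfb without wild-type replicate 3, and none of them passed. Intensities near the array medians limit what 1452530_a_at and 1421467_at can show.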
